A study of Homo sapiens with 12 samples.

Results

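The 37 genes described here encode the enzymes of the tricarboxylic acid (TCA) cycle and of the routes by which pyruvate and glutamate carbon enter and leave it. They were taken by symbol from the 26334 genes of the expression table, and all 37 were listed there. Of them, 35 reached an FPKM (fragments scaled to transcript length and to the size of the library) of 1 in at least 3 of the 12 libraries and were tested among 12649 genes. PDK4 and PCK1 did not reach it.

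The cells were HK-2, a line from human renal proximal tubule epithelium, carrying a PRCC-TFE3 fusion gene that doxycycline (Dox) switches on. Poly(A) RNA was sequenced after 48 h, with 3 libraries in each of 4 groups: Dox with the CDK8 and CDK19 inhibitor MSC2530818 at 100 nM, Dox with DMSO, the inhibitor without Dox, and DMSO without Dox. Both kinases belong to Mediator, a complex that connects transcription factors with RNA polymerase II. All groups carried the inducible gene and grew in the same medium with puromycin, blasticidin and GlutaMAX, a glutamine dipeptide. Because Dox was not given to cells lacking the inducible gene, what Dox did by itself and what the fusion did cannot be told apart. Whether the line is 1 clone was not given in the sources used here.

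The TCA cycle oxidizes acetyl groups to carbon dioxide and hands the electrons to the respiratory chain, and its intermediates feed the synthesis of lipids, nucleotides and amino acids. Pyruvate enters mitochondria through the MPC1-MPC2 carrier and is turned into acetyl-CoA by the pyruvate dehydrogenase complex, which PDK kinases switch off and PDP phosphatases switch on. In the renal proximal tubule the pathway is known for supplying the energy of solute transport and, with glutamate and phosphoenolpyruvate enzymes, for making glucose and ammonia. TFE3, the fusion partner, belongs with TFEB and MITF to a family of DNA-binding proteins that recognise sites with the core CACGTG.

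TFE3 averaged 84.2 ± 3.05 FPKM with Dox plus inhibitor and 150 ± 4 with Dox, against 27.8 ± 1.75 with inhibitor alone and 35.8 ± 3.07 in DMSO (SD, n = 3 each), so the labels for Dox were borne out in every library. FPKM sums per library ran from 429208 to 473950, absolute depth is unknown, and Pearson r across tested genes within groups ran from 0.979 to 0.9932. Replicate 1 stood apart from replicates 2 and 3 by a trend with transcript GC content that is described with the values of DLD and SUCLA2. Of 10 markers of differentiated proximal tubule, GGT1 was the only member to reach 1 FPKM in any library (36.3 to 51.2), and SLC22A6 and SLC22A8 were listed at 0. The renal epithelial genes PAX8, EPCAM, KRT8, KRT18 and KRT19 were expressed, while CDH1 and PAX2 did not exceed 0.05 FPKM. None of 5 distal nephron and 4 endothelial markers reached 1 FPKM. PODXL among 4 podocyte markers did, as did CD68 among 4 leukocyte markers and COL1A1 and ACTA2 among 4 fibroblast markers. WT1 was listed at 0, and PTPRC did not exceed 0.02 FPKM. The summed level of the 8 renal epithelial markers was 671.8 to 720.9 FPKM with Dox plus inhibitor, 562.5 to 590.3 with Dox, 858.5 to 992.8 with inhibitor and 697.9 to 813.4 in DMSO.

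The changes below are differences of log2(FPKM + 1) with their SE from 1 limma model of all 12 libraries, and a gene was called at a Benjamini-Hochberg adjusted p under 0.05 over all tested genes. In these bulk samples, fewer cells of a type and less RNA per cell cannot be told apart. The 37 genes together took 0.273% to 0.281% of the FPKM sum with Dox plus inhibitor, 0.296% to 0.303% with Dox, 0.265% to 0.266% with inhibitor and 0.276% to 0.278% in DMSO. The groups did not overlap in this share except that Dox plus inhibitor spanned the DMSO values. Single genes ranged from 0.81 FPKM for PC in an inhibitor library to 156 FPKM for the citrate synthase gene CS in a Dox library. Each of the 4 pairwise comparisons called some members, and 24 of the 35 were called in at least 1 of them, against 53% of all tested genes.

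**Figure D1:**
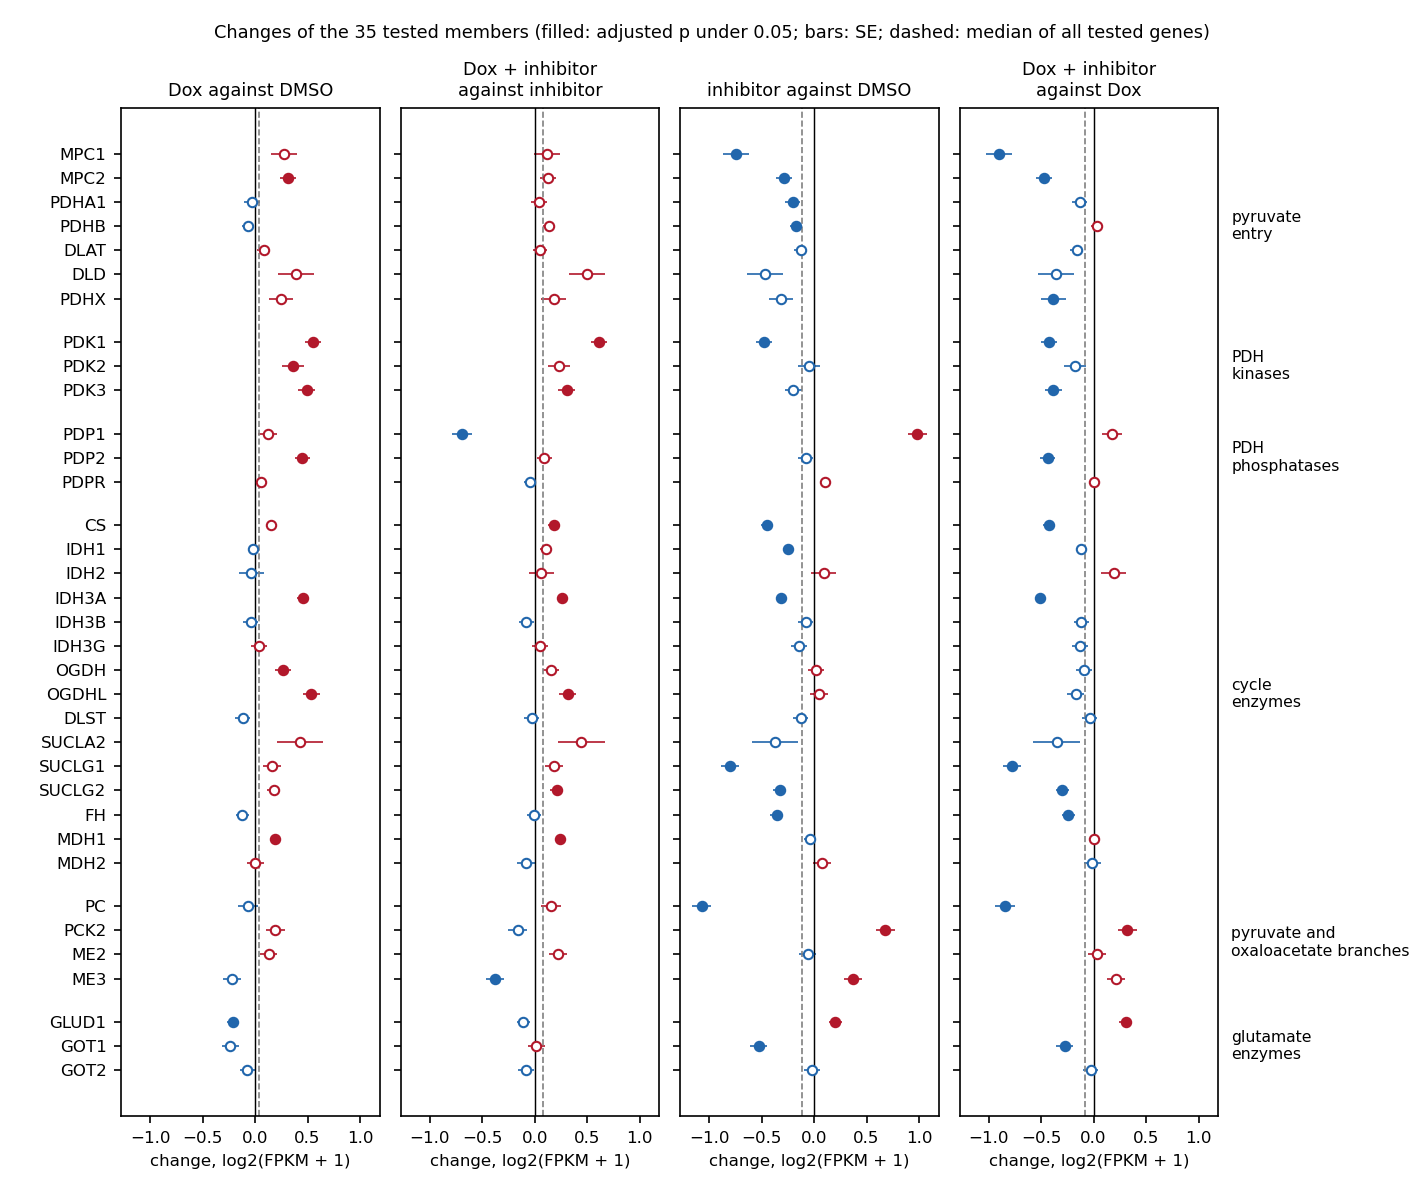
Change of each of the 35 tested genes (rows, grouped by role) on the log2(FPKM + 1) scale in the 4 pairwise comparisons, with SE as bars, filled points for adjusted p under 0.05 and the median of all tested genes as a dashed line. Most filled points lie right of 0 in the Dox comparisons (9 of 10 and 7 of 9) and left of 0 in the inhibitor comparisons (13 of 17 and 13 of 15).

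Dox without inhibitor raised 9 of the 35 genes and lowered 1, against 10.6% of all tested genes higher and 7.31% lower (17.9% called in all). The risers were the 3 expressed kinase genes of pyruvate dehydrogenase, the phosphatase gene PDP2, the carrier subunit gene MPC2 and the cycle genes IDH3A, OGDH, OGDHL and MDH1. GLUD1 fell. The median of the 35 genes was 0.13, against 0.04 for all tested genes. Of the calls over all genes 59.2% were higher with Dox, and 43.4% after median-ratio scaling. Among the 35 genes that scaling left 6 higher and 3 lower of 9 called, against 2386 of the 12649 tested genes called. The aspartate aminotransferase gene GOT1, which fell short of the threshold at -0.24, was then called lower with Dox (-0.29, adjusted p = 0.029), as was the malic enzyme gene ME3 (-0.27, adjusted p = 0.046, against -0.22 unscaled). GOT1 was also called lower with the replicate block (adjusted p = 0.02). Of 6 tested renal epithelial markers 4 were lower with Dox, and CD68 was higher (0.53 ± 0.092, adjusted p = 0.0023). The part of these markers in the results was not tested.

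PDK1 encodes a kinase that inactivates pyruvate dehydrogenase and is known as a hypoxia-inducible gene (chromosome 2, 172555373 to 172608669, plus strand, GRCh38). It stood at 13.51, 14.2 and 15.06 FPKM with Dox, against 8.18, 9.73 and 10.35 FPKM in DMSO, and the groups did not overlap. The rise was 0.55 ± 0.076 (adjusted p = 4.7e-04). PDK3, the kinase gene on the X chromosome (24465221 to 24541862, plus strand), stood at 7.95, 7.4 and 8.55 FPKM with Dox, against 4.9, 5.65 and 5.59 FPKM in DMSO, a rise of 0.49 ± 0.08 (adjusted p = 0.0015). All 3 Dox libraries lay above all 3 DMSO libraries for PDK3 too. PDK2 averaged 10.6 ± 0.33 FPKM with Dox and 8.15 ± 1.58 in DMSO (SD, n = 3 each), a rise of 0.36 ± 0.105 (adjusted p = 0.035). PDK4, the starvation-responsive kinase gene, was listed at 0.54, 0.43 and 0.46 FPKM with Dox and at 0.29, 0.37 and 0.21 FPKM in DMSO, under the filter.

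The phosphatase genes that oppose these kinases did not all move. PDP2 stood at 7.38, 8.57 and 7.45 FPKM with Dox, against 5.69, 5.5 and 5.11 FPKM in DMSO, with no overlap, and rose by 0.45 ± 0.07 (adjusted p = 0.0011). PDP1, the more abundant catalytic subunit, averaged 29.3 ± 0.896 FPKM with Dox and 27 ± 3.5 FPKM in DMSO (SD, n = 3 each; change 0.12 ± 0.092, adjusted p = 0.4). The regulatory subunit gene PDPR averaged 27.7 ± 0.642 and 26.6 ± 1.58 FPKM in the same groups. PDPR and GLUD1 have near-identical copies elsewhere in the genome, and how shared reads were divided is not given in the sources used here.

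Among the cycle genes, IDH3A encodes the catalytic subunit of the NAD-dependent isocitrate dehydrogenase (chromosome 15, 78131498 to 78171949, plus strand). It stood at 22.59, 22.38 and 23.43 FPKM with Dox, against 16.39, 16.64 and 16.05 FPKM in DMSO. The groups were well apart, and the rise of 0.46 ± 0.052 had an adjusted p of 1.3e-04. The genes of the partner subunits, IDH3B and IDH3G, were at -0.04 ± 0.072 and 0.04 ± 0.076 and were not called. OGDHL, a relative of the alpha-ketoglutarate dehydrogenase gene OGDH (chromosome 10, 49734643 to 49762379, minus strand), stood at 11.4, 12.92 and 12.26 FPKM with Dox, against 8.25, 8.12 and 7.94 FPKM in DMSO. All Dox libraries were higher, and the rise was 0.53 ± 0.082 (adjusted p = 0.001). OGDH itself averaged 87.6 ± 2.66 FPKM with Dox and 72.9 ± 6.62 in DMSO (0.26 ± 0.076, adjusted p = 0.033), and the cytosolic malate dehydrogenase gene MDH1 averaged 140 ± 3.34 and 122 ± 5.86 FPKM in the same groups (0.19 ± 0.052, adjusted p = 0.026).

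MPC2 averaged 65.5 ± 3.64 FPKM with Dox and 52.6 ± 3.33 in DMSO (0.31 ± 0.074, adjusted p = 0.014). MPC1, the partner that the carrier needs, averaged 9.67 ± 0.835 and 7.82 ± 1.05 FPKM in the same groups (0.28 ± 0.12, adjusted p = 0.15). GLUD1, the mitochondrial glutamate dehydrogenase gene, averaged 50.6 ± 1.48 FPKM with Dox and 58.7 ± 1.53 in DMSO and fell by 0.21 ± 0.06 (adjusted p = 0.033). The 5 genes of the pyruvate dehydrogenase complex lay between -0.07 and 0.39, and none of them was called by the unblocked fit. With the replicate number as a block, limma called DLD (0.39, adjusted p = 0.011) and PDHX (0.25, adjusted p = 0.03) higher with Dox.

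The calls of MPC2, PDK2, OGDH, MDH1 and GLUD1 each ended when single libraries were left out, whereas those of PDK1, PDK3, PDP2, IDH3A and OGDHL did not under any alternative run. MPC2 was at 0.27 without DMSO 2 or Dox 2, PDK2 at 0.23 to 0.38 without DMSO 2 or 3, any Dox library or Dox plus inhibitor 2, OGDH at 0.20 to 0.29 without DMSO 2 or 3 or any Dox library, MDH1 at 0.17 to 0.20 without DMSO 1 or 2 or any Dox library, and GLUD1 at -0.22 to -0.19 without DMSO 1 or 2, any Dox library or inhibitor 2. Median-ratio scaling also ended the calls of PDK2 (0.31), OGDH (0.21) and MDH1 (0.14), quantile normalization those of PDK2 (0.29) and MDH1 (0.23), and removal of the GC and length trend that of MDH1 (0.10). Removal of that trend called CS (0.16, adjusted p = 0.0039) and PCK2 (0.20, adjusted p = 0.021) higher and GOT1 lower (-0.24, adjusted p = 0.008). A fit of the 2 groups alone ended the calls of PDK2, OGDH and MDH1, and a fit without the filter that of PDK2, at the same values.

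The promoters of PDP2 and OGDHL are shown because these genes rose with Dox and their promoters hold the CACGTG core. The RefSeq windows (GRCh38.p14) cover 250 bases before to 50 after each gene start, and were matched for 34 of the 37 genes (not PDP1, OGDH or PCK1). CACGTG, which reads the same on both strands, was found in 4 of these 34 windows (11.8%), against 2030 of 27305 windows of all genes (7.43%). The 4 were those of PDHB, PDP2, OGDHL and ME3. Of the 9 genes that rose with Dox, 8 had a window and 2 held the core. The longer TCACGTGA, which contains the core and is also its own reverse complement, was found in the OGDHL window (1 of 34, 2.94%) and in 283 of all windows (1.04%). The core is in capitals below, and its first base lies at position -197 from the gene start in PDP2 (chr16:66880265-66880564, plus strand) and at position -21 in OGDHL (chr10:49762274-49762573, minus strand). A match describes the letters and not binding.
PDP2: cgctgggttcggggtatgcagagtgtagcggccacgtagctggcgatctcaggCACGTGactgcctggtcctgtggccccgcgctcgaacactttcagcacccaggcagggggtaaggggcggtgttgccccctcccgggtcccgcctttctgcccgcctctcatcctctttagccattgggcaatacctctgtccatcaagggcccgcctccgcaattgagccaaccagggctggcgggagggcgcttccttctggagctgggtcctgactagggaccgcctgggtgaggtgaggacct
OGDHL: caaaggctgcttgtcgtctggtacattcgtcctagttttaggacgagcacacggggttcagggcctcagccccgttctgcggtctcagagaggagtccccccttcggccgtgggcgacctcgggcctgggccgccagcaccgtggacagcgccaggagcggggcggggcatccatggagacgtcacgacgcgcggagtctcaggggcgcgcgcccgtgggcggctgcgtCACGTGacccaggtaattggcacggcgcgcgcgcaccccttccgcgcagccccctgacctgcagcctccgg

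In the presence of the inhibitor, Dox raised 7 of the 35 genes and lowered 2, against 12.2% of all tested genes higher and 6.06% lower (18.2% called in all). PDK1, PDK3, IDH3A, OGDHL, MDH1, CS and SUCLG2 rose, and PDP1 and ME3 fell. Replicates of these groups deviated together, and with the replicate number as a block 15 of the 35 genes were called, against 36% of all genes. The genes added by the block were DLD (0.50), SUCLA2 (0.45), ME2 (0.22), SUCLG1 (0.18), OGDH (0.16) and PDHB (0.14), all higher with Dox. The median of the 35 genes was 0.12, against 0.08 for all tested genes. Of the calls over all genes 66.7% were higher with Dox plus inhibitor, and 35.3% after median-ratio scaling. Of 6 tested renal epithelial markers 5 were lower with Dox plus inhibitor, and their part in the results was not tested.

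PDK1 stood at 10.08, 10.36 and 10.68 FPKM with Dox plus inhibitor, against 6.41, 6.56 and 6.4 FPKM with inhibitor alone. The groups did not overlap, and the rise of 0.61 ± 0.076 (adjusted p = 4.5e-04) differed little in size from that without inhibitor (difference 0.05 ± 0.11, adjusted p = 0.91). PDK3 averaged 5.88 ± 0.462 FPKM with Dox plus inhibitor and 4.56 ± 0.335 with inhibitor (0.31 ± 0.08, adjusted p = 0.024). IDH3A stood at 15.49, 15.59 and 16.18 FPKM with Dox plus inhibitor, against 12.13, 13.25 and 13.51 FPKM with inhibitor, and rose by 0.26 ± 0.052 (adjusted p = 0.0067). Its levels with Dox plus inhibitor overlapped those of DMSO cells. OGDHL rose by 0.32 ± 0.082 (adjusted p = 0.024), with 9.58, 12.13 and 10.55 FPKM with Dox plus inhibitor against 7.75, 8.76 and 8.75 FPKM with inhibitor.

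PDP1 fell to 30.34, 35.05 and 34.21 FPKM with Dox plus inhibitor, against 49.53, 56.69 and 56.61 FPKM with inhibitor. Every Dox plus inhibitor library was lower, and the change was -0.69 ± 0.092 (adjusted p = 6.9e-04). ME3, a mitochondrial NADP-dependent malic enzyme gene, averaged 14.6 ± 1 FPKM with Dox plus inhibitor and 19.2 ± 1.34 with inhibitor (SD, n = 3 each) and fell by 0.38 ± 0.084 (adjusted p = 0.012). MDH1 averaged 141 ± 4.25 and 119 ± 5.35 FPKM in the same groups (0.24 ± 0.052, adjusted p = 0.01). CS averaged 111 ± 3.82 FPKM with Dox plus inhibitor and 97.5 ± 3.76 with inhibitor (0.18 ± 0.055, adjusted p = 0.041), and SUCLG2, the GTP-forming succinyl-CoA ligase subunit gene, 19.5 ± 0.408 and 16.7 ± 0.788 FPKM (0.21 ± 0.063, adjusted p = 0.04). Without inhibitor, Dox changed CS by 0.15 ± 0.055 (adjusted p = 0.076) and SUCLG2 by 0.18 ± 0.063 (adjusted p = 0.073). The interaction was not called for either gene (adjusted p = 0.93 and 0.94). The replicate block called the CS rise without inhibitor (adjusted p = 0.0066).

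After median-ratio scaling 4 of the 35 genes were called, against 1866 of the 12649 tested genes. The calls of PDK3 (0.23), OGDHL (0.24), MDH1 (0.16), SUCLG2 (0.13) and CS (0.10) ended. Removal of the GC and length trend took PDK1 to 0.38 and IDH3A to 0.15 with their calls kept. It ended the calls of PDK3 (0.16) and MDH1 (0.07) and brought SUCLG2 to -0.0033. Removal of that trend left 11 genes called in all, against 2366 of the 11996 tested genes with a matched transcript. Its added calls included PDK2 (0.26, adjusted p = 0.021) and OGDH (0.17, adjusted p = 0.019), higher, and GLUD1 (-0.23, adjusted p = 0.042). Quantile normalization ended the calls of PDK3 (0.19), OGDHL (0.21) and SUCLG2 (0.13). A fit of the 2 groups alone ended the calls of IDH3A (adjusted p = 0.051), PDK3, CS, OGDHL and SUCLG2, and a fit without the intensity trend that of CS, at the same values. Among single libraries, the ME3 call ended without Dox plus inhibitor 2 (-0.32), the OGDHL call without inhibitor 1 or Dox plus inhibitor 2 or 3 (0.23 to 0.33), the PDK3 call without inhibitor 1 or 2 or Dox plus inhibitor 2 or 3 (0.25 to 0.32), the CS call without DMSO 2, Dox 1 or 2, inhibitor 2 or 3 or any Dox plus inhibitor library (0.15 to 0.20) and the SUCLG2 call without DMSO 2, Dox 1, inhibitor 2 or 3 or any Dox plus inhibitor library (0.17 to 0.22).

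The inhibitor without Dox lowered 13 of the 35 genes and raised 4, against 26.3% of all tested genes lower and 11.7% higher (38% called in all). The largest falls were those of PC, which makes oxaloacetate from pyruvate, the succinyl-CoA ligase subunit gene SUCLG1 and the carrier gene MPC1. GOT1, PDK1, CS, FH, SUCLG2, IDH3A, MPC2, IDH1, PDHA1 and PDHB fell by less. The phosphatase gene PDP1, the mitochondrial phosphoenolpyruvate carboxykinase gene PCK2, ME3 and GLUD1 rose. The median of the 35 genes was -0.15 and that of all tested genes -0.12, a shift of the whole table that median-ratio scaling took to -0.01. Of the calls over all genes 30.8% were higher with inhibitor, and 55% after that scaling. The phosphatase subunit gene PDPR was called higher after it (0.22, adjusted p = 0.007). With the replicate number as a block 23 of the 35 genes were called, against 6167 of the 12649 tested genes. The block added DLAT, DLD, PDHX, PDK3, IDH3G and SUCLA2, all lower with inhibitor.

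PC (chromosome 11, 66848233 to 66958376, minus strand) stood at 0.84, 0.81 and 1.21 FPKM with inhibitor, against 3.31, 3.08 and 2.89 FPKM in DMSO. The groups were far apart, and the change was -1.07 ± 0.093 (adjusted p = 7e-06), or -0.96 relative to the median gene. With a pseudocount of 0.1 in place of 1, which understates a low gene less, it was -1.62. SUCLG1, the alpha subunit shared by the ATP-forming and GTP-forming ligases (chromosome 2, 84423523 to 84460045, minus strand), stood at 28.46, 23.23 and 24.66 FPKM with inhibitor, against 49.32, 41.09 and 44.52 FPKM in DMSO. No inhibitor library reached a DMSO library, and the change was -0.80 ± 0.085 (adjusted p = 3.4e-05), or -0.68 relative to the median gene. MPC1 (chromosome 6, 166364919 to 166383013, minus strand) stood at 4.33, 3.51 and 4.93 FPKM with inhibitor, against 6.65, 8.67 and 8.13 FPKM in DMSO (-0.75 ± 0.12, adjusted p = 7.4e-04, or -0.63 relative to the median gene).

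GOT1, the cytosolic aspartate aminotransferase gene of the malate-aspartate shuttle, stood at 28.24, 24.67 and 23.11 FPKM with inhibitor, against 40.71, 34.01 and 36.09 FPKM in DMSO (-0.53 ± 0.08, adjusted p = 4.3e-04). Its mitochondrial partner GOT2 averaged 83.4 ± 7.95 FPKM with inhibitor and 84.5 ± 5.64 in DMSO and was not called (-0.02 ± 0.073). CS, which joins acetyl-CoA to oxaloacetate, averaged 97.5 ± 3.76 FPKM with inhibitor and 134 ± 5.84 in DMSO (-0.45 ± 0.055, adjusted p = 8.2e-05). PDK1 averaged 6.46 ± 0.0896 FPKM with inhibitor and 9.42 ± 1.12 in DMSO (-0.48 ± 0.076, adjusted p = 5.9e-04). The fumarase gene FH averaged 35.2 ± 1.42 and 45.5 ± 1.92 FPKM in the same groups (-0.36 ± 0.063), SUCLG2 16.7 ± 0.788 and 21.2 ± 1.16 FPKM (-0.33 ± 0.063) and IDH3A 13 ± 0.733 and 16.4 ± 0.296 FPKM (-0.32 ± 0.052), with adjusted p of 0.0011, 0.0018 and 7.7e-04.

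PDP1 (chromosome 8, 93857807 to 93926066, plus strand) rose to 49.53, 56.69 and 56.61 FPKM with inhibitor, against 23.46, 27.16 and 30.46 FPKM in DMSO. Each inhibitor library lay above every DMSO library, and the change was 0.98 ± 0.092 (adjusted p = 1.3e-05), or 1.10 relative to the median gene. PCK2 (chromosome 14, 24094053 to 24110598, plus strand) stood at 16.22, 14.51 and 14.64 FPKM with inhibitor, against 10.38, 8.85 and 8.11 FPKM in DMSO, again without overlap (0.68 ± 0.09, adjusted p = 1.7e-04, or 0.79 relative to the median gene). Its cytosolic relative PCK1 did not exceed 0.09 FPKM in any library. ME3 averaged 19.2 ± 1.34 FPKM with inhibitor and 14.6 ± 1.21 in DMSO (0.37 ± 0.084, adjusted p = 0.005), and GLUD1 67.9 ± 5.26 and 58.7 ± 1.53 FPKM (0.20 ± 0.06, adjusted p = 0.02).

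Median-ratio scaling ended the calls of MPC2 (-0.17), IDH1 (-0.13), PDHA1 (-0.09) and PDHB (-0.06) and moved GLUD1 to 0.32, IDH3A to -0.20 and SUCLG2 to -0.21 with their calls kept. Quantile normalization ended those of PDHA1 (-0.14) and PDHB (-0.11) and took IDH1 to -0.15 and IDH3A to -0.21. A fit of the 2 groups alone ended the calls of MPC2, PDHA1, PDHB and GLUD1, and fits without the filter or the intensity trend that of PDHA1, at the same values. Removal of the GC and length trend ended the calls of FH (-0.20), SUCLG2 (-0.16), MPC2 (-0.17), IDH1 (-0.11), PDHA1 (-0.07) and PDHB (-0.02), and took PDK1 to -0.30, IDH3A to -0.17 and GLUD1 to 0.31. Its added calls included MDH1, higher at 0.11 (adjusted p = 0.045) against -0.04 before removal. Among single libraries, the GLUD1 call ended without DMSO 2 or 3 or inhibitor 1 or 2 (0.15 to 0.20), the PDHB call without DMSO 1 or 2 or inhibitor 2 or 3 (-0.17 to -0.14) and the PDHA1 call without DMSO 1 or 2, any Dox library, inhibitor 2 or 3 or Dox plus inhibitor 3 (-0.20 to -0.17). The summed level of 4 fibroblast markers ranged from 11 to 12 FPKM with Dox plus inhibitor, 3.85 to 4.22 with Dox, 8.52 to 9.48 with inhibitor and 4.38 to 5.28 in DMSO, through ACTA2, while COL3A1 and PDGFRB did not exceed 0.1 FPKM. Of 6 tested renal epithelial markers 4 were higher with inhibitor than in DMSO, and 4 with Dox plus inhibitor than with Dox. Of all tested genes 11.7% and 11.3% were higher in these comparisons. CD68 was lower in both comparisons (-0.46 ± 0.092 and -0.83 ± 0.092, adjusted p = 0.0026 and 5e-05). The part of these markers in the results was not tested.

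**Figure D2:**
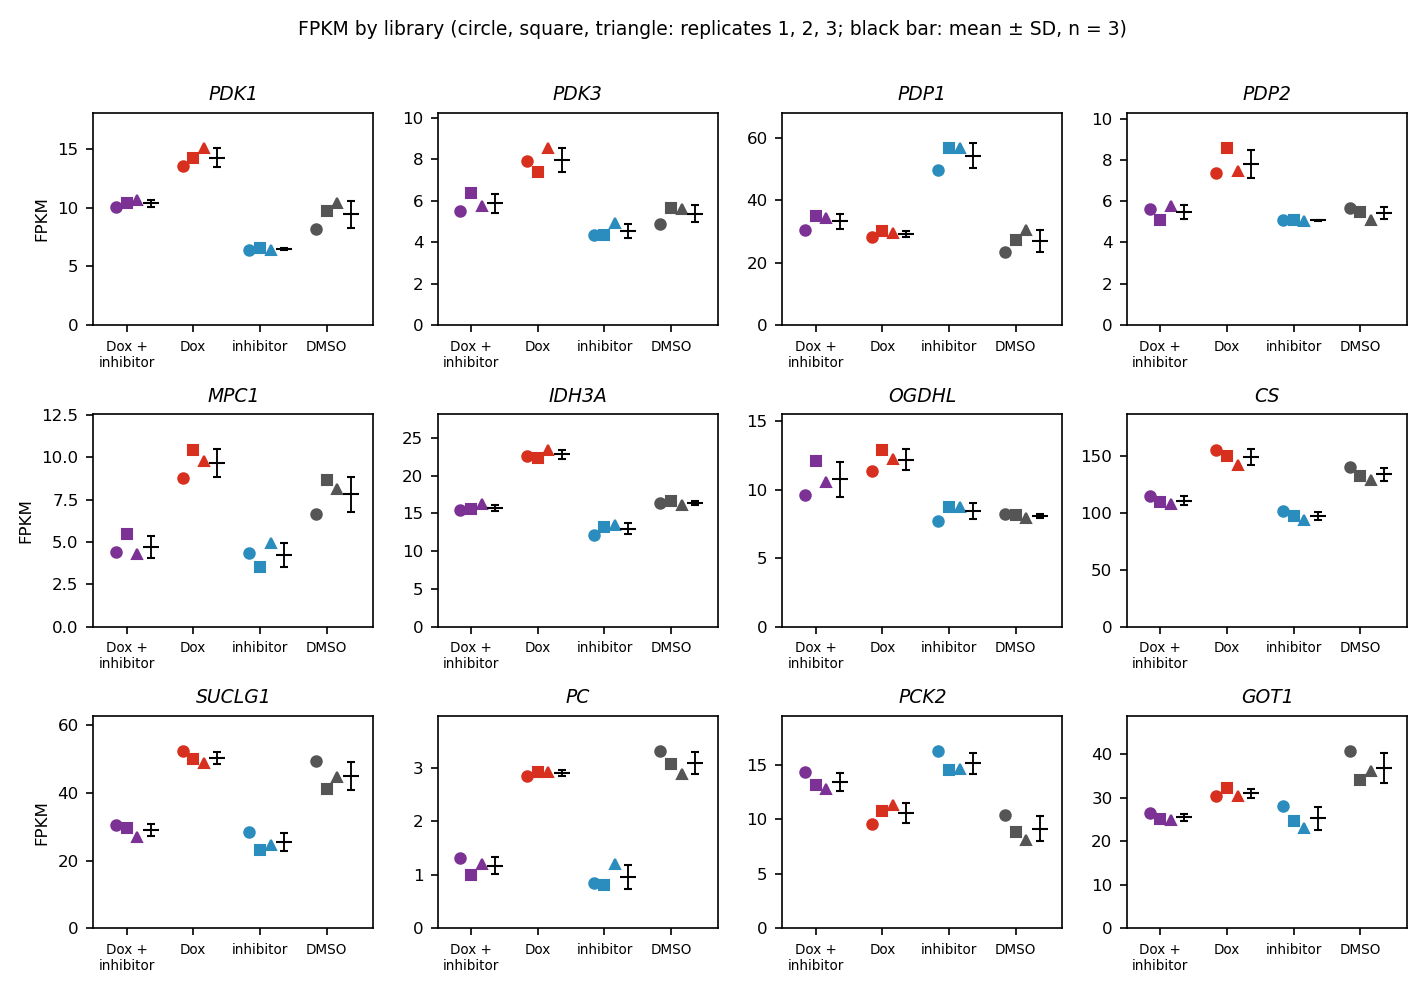
FPKM of 12 genes in each library (circle, square and triangle for replicates 1, 2 and 3), with the mean ± SD of each group beside the points. PDP1 is high with inhibitor alone (49.5 to 56.7 FPKM) and lies between 23.5 and 35.1 FPKM in the other 9 libraries, while PC and SUCLG1 are low in both groups with inhibitor.

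In Dox-treated cells the inhibitor lowered 13 of the 35 genes and raised 2, against 20.8% of all tested genes lower and 11.3% higher (32.1% called in all). MPC1, PC, SUCLG1, IDH3A, MPC2, PDP2, CS, PDK1, PDHX, PDK3, SUCLG2, GOT1 and FH fell, and PCK2 and GLUD1 rose. This comparison shares no library with that of inhibitor against DMSO. Of the 17 genes called without Dox and the 15 called with it, 12 were called in both in the same direction, which is 70.6% and 80% of the lists. The matching share over all tested genes is not given here, so whether the overlap is larger in these genes cannot be said. The sign of the change was the same in 29 of the 35 genes, near the 80.4% of all tested genes. Over the 35 genes the changes had a Pearson r of 0.855, against 0.72 over all tested genes. Of the calls over all genes 35.3% were higher with Dox plus inhibitor, and 53.9% after median-ratio scaling, which also called ME3 higher (0.29, adjusted p = 0.022).

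PC stood at 1.31, 1 and 1.21 FPKM with Dox plus inhibitor, against 2.84, 2.93 and 2.93 FPKM with Dox (-0.85 ± 0.093, adjusted p = 4.7e-05). SUCLG1 stood at 30.5, 29.51 and 26.96 FPKM with Dox plus inhibitor, against 52.24, 50.09 and 48.69 FPKM with Dox (-0.78 ± 0.085, adjusted p = 4.6e-05). MPC1 stood at 4.39, 5.46 and 4.28 FPKM with Dox plus inhibitor, against 8.79, 10.45 and 9.77 FPKM with Dox (-0.91 ± 0.12, adjusted p = 2.4e-04). In none of the 3 genes did the groups overlap. Both carrier subunits fell, since MPC2 averaged 46.9 ± 0.757 FPKM with Dox plus inhibitor and 65.5 ± 3.64 with Dox (-0.47 ± 0.074, adjusted p = 6.4e-04).

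IDH3A fell to 15.49, 15.59 and 16.18 FPKM with Dox plus inhibitor, against 22.59, 22.38 and 23.43 FPKM with Dox (-0.51 ± 0.052, adjusted p = 2.9e-05). The PDP2 values of 5.6, 5.1 and 5.77 FPKM with Dox plus inhibitor stood against 7.38, 8.57 and 7.45 FPKM with Dox (-0.44 ± 0.07, adjusted p = 7.2e-04). Neither gene overlapped between the groups, and both lay near their DMSO levels in Dox plus inhibitor cells. TFE3, the fusion partner, was also lower with Dox plus inhibitor than with Dox, as given above. A lower fusion level and other actions of the inhibitor cannot be told apart in this comparison. PDK1 averaged 10.4 ± 0.3 FPKM with Dox plus inhibitor and 14.3 ± 0.777 with Dox (-0.42 ± 0.076, adjusted p = 0.0015), and PDK3 5.88 ± 0.462 and 7.97 ± 0.575 FPKM (-0.38 ± 0.08, adjusted p = 0.0039). CS averaged 111 ± 3.82 and 149 ± 6.95 FPKM in the same groups (-0.42 ± 0.055, adjusted p = 1.5e-04).

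PCK2 averaged 13.4 ± 0.792 FPKM with Dox plus inhibitor and 10.5 ± 0.899 with Dox (0.32 ± 0.09, adjusted p = 0.019), and GLUD1 62.9 ± 2.55 and 50.6 ± 1.48 FPKM (0.31 ± 0.06, adjusted p = 0.0026). SUCLG2 (-0.30 ± 0.063, adjusted p = 0.004), FH (-0.24 ± 0.063, adjusted p = 0.013), GOT1 (-0.27 ± 0.08, adjusted p = 0.022) and PDHX, which anchors the third enzyme of the pyruvate dehydrogenase complex (-0.38 ± 0.12, adjusted p = 0.027), were lower. Median-ratio scaling ended the calls of PDHX (-0.30), FH (-0.16) and GOT1 (-0.19), and removal of the GC and length trend those of FH (-0.15) and SUCLG2 (-0.20). The added calls after that removal included PDP1 (0.24, adjusted p = 0.034) and ME3 (0.27, adjusted p = 0.026), both higher. Among single libraries, the PCK2 call ended without Dox 1 or Dox plus inhibitor 1 (0.26 and 0.28), the FH call without Dox 1 or 3 (-0.23 to -0.19), the GOT1 call without Dox 1 or 2 or Dox plus inhibitor 2 or 3 (-0.29 to -0.25) and the PDHX call without any Dox library or Dox plus inhibitor 1 or 2 (-0.41 to -0.33). Without replicate 1 of all groups PCK2 was at 0.21 and stayed called.

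**Figure D3:**
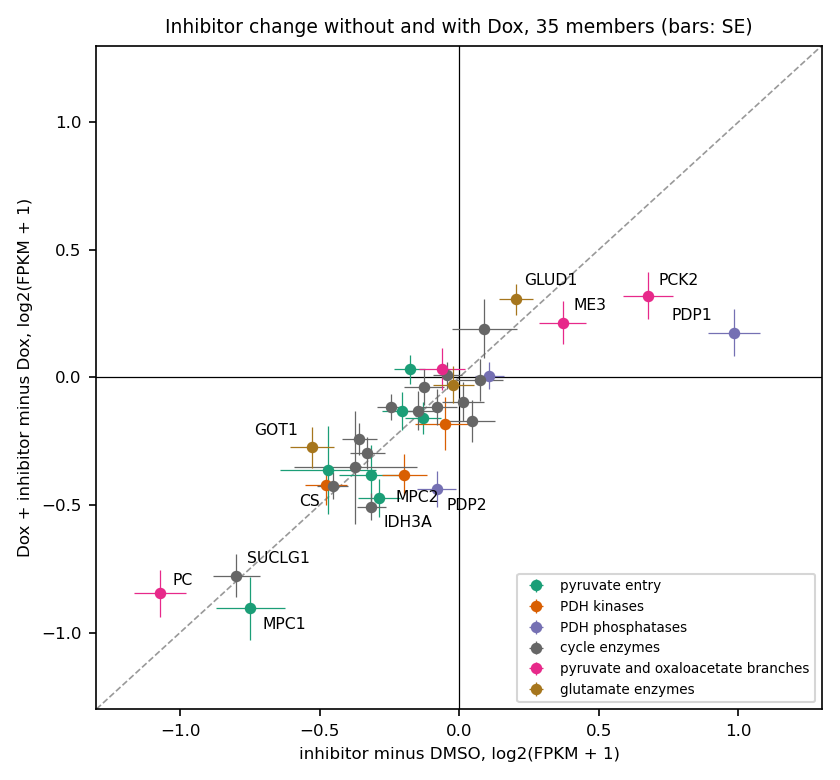
Change with inhibitor in cells without Dox (x axis) and with Dox (y axis) for the 35 genes, on the log2(FPKM + 1) scale with SE as bars and the line of equal change dashed. PC, SUCLG1 and MPC1 lie far below 0 on both axes, and PDP1 lies at 0.98 on the x axis and 0.17 on the y axis.

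The interaction of Dox and inhibitor was called for 1 of the 35 genes, PDP1, a share near the 2.82% of all tested genes called (1.91% with a negative difference). The inhibitor changed PDP1 by 0.98 ± 0.092 without Dox and by 0.17 ± 0.092 with it (adjusted p = 0.18), and the difference was -0.81 ± 0.13 (adjusted p = 0.0066). The smaller rise with Dox, without overlap of the groups, was called with the replicate block (adjusted p = 0.032). It was also called after removal of the GC and length trend (0.24, adjusted p = 0.034). Put the other way, Dox changed PDP1 by 0.12 without inhibitor and by -0.69 with it. The difference stayed called under all alternatives run, at -0.90 to -0.72. PODXL, listed as a podocyte marker, also had a called difference (-0.54 ± 0.105, adjusted p = 0.02), and its part in the result was not tested. PDP2 (-0.36 ± 0.1, adjusted p = 0.096), PCK2 (-0.36 ± 0.13, adjusted p = 0.2) and IDH3A (-0.19 ± 0.074, adjusted p = 0.26) were not called, but were after removal of the GC and length trend (-0.39, -0.32 and -0.26).

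The balance of kinase and phosphatase transcripts was summed from FPKM, a scale per transcript length, as PDK1 to PDK4 over PDP1 and PDP2. The ratio was 0.706, 0.66 and 0.639 with Dox plus inhibitor, 0.906, 0.843 and 0.952 with Dox, 0.349, 0.297 and 0.312 with inhibitor, and 0.791, 0.734 and 0.638 in DMSO. The inhibitor libraries were lowest and the Dox libraries highest, and the Dox plus inhibitor libraries overlapped with DMSO. This ratio of sums is a description and was not tested.

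DLD and SUCLA2 had the widest spread among replicates. DLD, the dehydrogenase subunit shared by the pyruvate and alpha-ketoglutarate complexes, stood at 16.13, 18.66 and 18.79 FPKM with Dox plus inhibitor, 21.84, 21.84 and 26.12 with Dox, 9.64, 12.96 and 14.94 with inhibitor and 13.42, 18.12 and 21.79 in DMSO. SUCLA2, the ATP-forming succinyl-CoA ligase subunit gene, stood at 9.68, 11.77 and 11.71 FPKM with Dox plus inhibitor, 13.76, 13.3 and 16.12 with Dox, 5.51, 8.18 and 10.49 with inhibitor and 7.55, 10.27 and 14.46 in DMSO. Replicate 1 was low in most of these groups, and neither gene was called by the unblocked fit of all 12 libraries. With the block both were called in all 4 pairwise comparisons. The adjusted p for DLD was 0.011 for Dox against DMSO, 0.0039 for Dox plus inhibitor against inhibitor, 0.0022 for inhibitor against DMSO and 0.01 for Dox plus inhibitor against Dox. For SUCLA2 it was 0.031, 0.024, 0.035 and 0.049 in the same order of comparisons. Replicate 1 gave the lowest value in all 4 groups for 5 of the 35 genes and the highest for another 5.

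The transcripts of DLD and SUCLA2 had the lowest GC contents of the 35 genes, 40.1% and 40.2%, in a range up to 61.7% with a median of 48% (49.8% over all tested genes with a matched transcript). Over the 35 genes, the deviation of replicate 1 from its group mean had a rank correlation of 0.609 with transcript GC content, against 0.649 over 11996 tested genes. The change with Dox in the presence of the inhibitor had a rank correlation of -0.409 with GC content over the 35 genes and -0.556 over all, and that with inhibitor against DMSO 0.401 and 0.223. The genes of a comparison share its libraries, so these values describe the libraries. Their part in the single changes was not tested beyond the values given after removal of the trend.

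**Figure D4:**
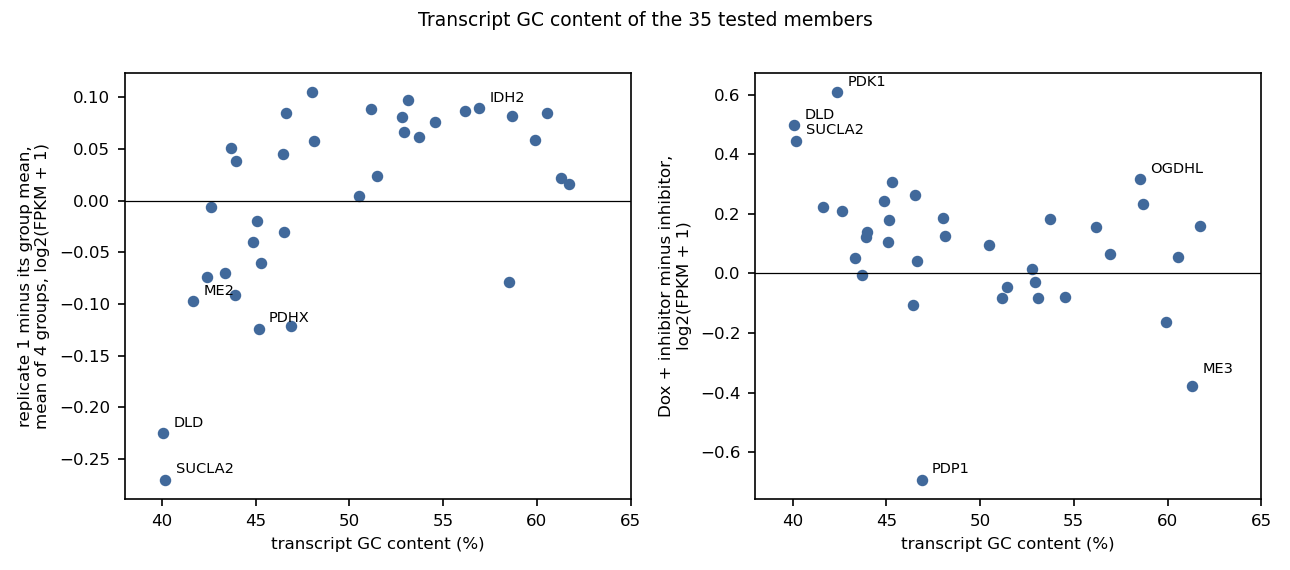
Transcript GC content of the 35 genes in percent (x axes) against the deviation of replicate 1 from its group mean, averaged over the 4 groups (left), and against the change with Dox in the presence of the inhibitor (right), both on the log2(FPKM + 1) scale. DLD and SUCLA2, at 40.1% and 40.2% GC, lie lowest on the left and among the highest on the right.

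The 11 tested genes called in no comparison by the unblocked fit of the deposited values were DLAT, DLD, PDPR, IDH2, IDH3B, IDH3G, DLST, SUCLA2, MDH2, ME2 and GOT2. The block called DLAT, DLD, SUCLA2, IDH3G and ME2 in at least 1 comparison, and median-ratio scaling called PDPR in 1. Removal of the GC and length trend also called some of these 11 genes, which are not named here. DLST, the acyltransferase subunit of the alpha-ketoglutarate complex, averaged 40 to 44.7 FPKM over the 4 groups, and DLAT, its counterpart in the pyruvate complex, 11 to 12.8 FPKM. MDH2, the mitochondrial malate dehydrogenase gene, averaged 66.1 to 70.2 FPKM and IDH2, the mitochondrial NADP-dependent isocitrate dehydrogenase gene, 19.6 to 22.5 FPKM. The median SE of a change over the 35 genes was 0.08, with a range of 0.05 to 0.22, so a change of the size of 0.2 in the noisier genes was not detectable with 3 libraries a group.

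Of 16 neighbouring enzyme genes, 13 were tested. With Dox without inhibitor 2 rose and 1 fell, and with Dox in the presence of the inhibitor 2 rose and 2 fell, against 17.9% and 18.2% of all tested genes called. With inhibitor 2 rose and 4 fell in cells without Dox, and likewise 2 and 4 in cells with Dox, against 38% and 32.1% of all tested genes called. ACLY, which splits exported citrate in the cytosol, fell with Dox (-0.56 ± 0.073, adjusted p = 3.2e-04) and rose with inhibitor (0.44 ± 0.073, adjusted p = 7.6e-04). ME1, the cytosolic malic enzyme gene, rose with Dox without inhibitor (0.39 ± 0.058, adjusted p = 8.3e-04) and with it (0.52 ± 0.058, adjusted p = 2.2e-04). None of the 4 succinate dehydrogenase genes was called in any comparison, and SDHA averaged 57.4, 58.4, 55.3 and 56.8 FPKM with Dox plus inhibitor, Dox, inhibitor and DMSO.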

How the data were processed

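RNA was sequenced as poly(A) RNA from TRIzol extracts with a stranded TruSeq mRNA kit, per the labels' protocols. The authors deposited FPKM for 26334 gene symbols in 12 columns, matched to samples by column name. Trim Galore 0.6.7, Salmon 1.9.0, GRCh38.p13 and hg38 are named, per the submitters' processing notes. How FPKM was calculated, and on which annotation, is not given in the sources used here. Read counts are not analysed here, so depth is unknown and no counting interval is given.

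The scale was log2(FPKM + 1), with no rescaling, for the 12649 genes with an FPKM of at least 1 in at least 3 libraries. Fold changes on this scale understate changes of low genes. With limma 3.58.1 (R 4.3.3), all 12 libraries entered 1 linear model of 4 groups that left 8 degrees of freedom, with an intensity trend, two-sided tests and Benjamini-Hochberg adjustment over all tested genes (called under 0.05). It was tested on simulated data. The series' design text calls the replicates biological ones. Same-numbered libraries deviated together, with r over 0.1 in every pair, for Dox plus inhibitor and inhibitor (0.549, 0.133 and 0.337). For inhibitor and DMSO r was 0.686, 0.0974 and 0.505. This hint comes from the data and not from the labels, and the blocked fit is given beside these comparisons. Coordinates, transcript GC content and length came from GENCODE release 29 (GRCh38), and 94.8% of tested genes matched. GC content and length were medians over the annotated protein-coding transcripts of a gene, or over all its transcripts where it had none. They need not be those of the transcript expressed in these cells. Alternatives were median-ratio scaling, quantile normalization, a pseudocount of 0.1, other filters, no trend, the 2 groups alone, a replicate block and each library left out. The GC and length correction and the fit without replicate 1 were added after the data were seen.

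The genes and lists were chosen with earlier results of these data known. All 37 genes are accounted for. Genes called in any comparison are described, with library values for called changes of at least 0.5 and for the 2 of largest change in each comparison. Values of further genes by library, and OGDHL, PDP2 and DLD among them, were added after they were seen. Some results on neighbouring and marker genes are not reported here.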

Additional observations from a re-analysis of the deposited data

Results flagged for a closer look

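PDP1 was the only 1 of the 35 tested genes whose response to the inhibitor differed between cells with and without Dox by the interaction term of the limma model (-0.81 ± 0.13, adjusted p = 0.0066). The gene was higher with inhibitor than in DMSO in 3 of 3 libraries without Dox (54.3 ± 4.11 against 27 ± 3.5 FPKM, SD, n = 3 each). With Dox it averaged 33.2 ± 2.51 FPKM with the inhibitor and 29.3 ± 0.896 without it. That smaller rise was not called by the unblocked fit of the deposited values. It was called with the replicate block and after removal of the GC and length trend.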

How the results depend on the processing

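Precision is limited by 3 libraries a group and by unknown read depth. Of the 35 genes, 10 were called for Dox against DMSO, 12 without replicate 1 of all groups and 5 to 11 when single libraries were left out (5 without DMSO 2 and 6 without any 1 Dox library). For Dox plus inhibitor against inhibitor 9 were called, 4 after median-ratio scaling, 4 with the 2 groups alone, 15 with the replicate block, 14 with the block and the GC and length trend removed, 14 without replicate 1 of all groups, and 4 to 11 when single libraries were left out (4 without Dox plus inhibitor 2 and 5 without Dox plus inhibitor 3). SUCLG2 reversed in that comparison when the trend was removed, with or without the block (-0.0033, adjusted p = 0.98 without it). For the interaction 1 was called, 4 with the trend removed, 4 with the block as well, 2 without replicate 1 of all groups, and 1 whichever single library was left out. For inhibitor against DMSO and Dox plus inhibitor against Dox the counts stayed within 1.5 times the 17 and 15 called. The causes were not tested beyond these fits.

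With the replicate block 15 genes were called for Dox against DMSO, 23 for inhibitor against DMSO, 19 for Dox plus inhibitor against Dox and 1 for the interaction. For inhibitor against DMSO the same-numbered libraries had r of 0.686, 0.0974 and 0.505, with only replicate 2 just under 0.1. For Dox against DMSO and Dox plus inhibitor against Dox they did not all deviate together (lowest r -0.0723 and -0.0904). Over all genes the block gave 3741 calls against 2269 for Dox against DMSO, 4548 against 2304 for Dox plus inhibitor against inhibitor, and 666 against 357 for the interaction. It gave 6167 against 4802 for inhibitor against DMSO and 5239 against 4063 for Dox plus inhibitor against Dox. The interaction gave 848 with the trend removed, 1107 with the block as well, 198 without DMSO 2, 186 without Dox 2, 207 without Dox 3, 204 without inhibitor 2, and 237 and 214 without Dox plus inhibitor 2 and 3. Dox against DMSO gave 1492 without DMSO 2, 1427 without Dox 3 and 4029 with both the block and the trend correction. It gave 2382 without replicate 1 of all groups. Dox plus inhibitor against inhibitor gave 1099 with the 2 groups alone, 1352 without inhibitor 2, and 1245 and 1121 without Dox plus inhibitor 2 and 3. That comparison gave 1866 after median-ratio scaling, 2975 without replicate 1 of all groups and 3137 with both the block and the trend correction.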

Other observations

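Of 12 carrier genes that move substrates of these pathways, 11 were tested. With inhibitor 5 were lower than in DMSO and none higher, against 26.3% of all tested genes lower. With Dox plus inhibitor 3 of the 11 were lower than with Dox, near the 20.8% of all tested genes lower. With Dox 1 rose and 1 fell, against 17.9% of all tested genes called. With Dox in the presence of the inhibitor 3 rose, against 12.2% of all tested genes higher. SLC16A3, a lactate exporter gene, fell by 0.62 ± 0.084 with inhibitor against DMSO (limma adjusted p = 1.8e-04) and by 0.51 ± 0.084 with Dox plus inhibitor against Dox (adjusted p = 9e-04). SLC25A11, the alpha-ketoglutarate and malate carrier gene of the malate-aspartate shuttle, fell by 0.28 ± 0.081 and 0.45 ± 0.081 in these comparisons (adjusted p = 0.017 and 0.0015). SLC25A13, an aspartate and glutamate carrier gene, rose by 0.36 ± 0.056 with Dox (adjusted p = 0.001) and by 0.22 ± 0.056 with Dox in the presence of the inhibitor (adjusted p = 0.02).

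Among 11 regulator genes 9 were tested. PPARGC1A, which encodes a coactivator known for mitochondrial gene programmes, averaged 5.54 FPKM with Dox plus inhibitor, 9.09 with Dox, 4.42 with inhibitor and 5.69 in DMSO. It rose by 0.60 ± 0.13 with Dox (adjusted p = 0.0097) and fell by 0.63 ± 0.13 with Dox plus inhibitor against Dox (adjusted p = 0.0044). MYC fell by 0.74 ± 0.062 with Dox (adjusted p = 1.3e-05) and rose by 0.57 ± 0.062 with inhibitor against DMSO (adjusted p = 4e-05). EPAS1, the gene of a hypoxia-inducible factor, rose by 0.58 ± 0.049 with Dox (adjusted p = 1.5e-05) and by 0.28 ± 0.049 with inhibitor (adjusted p = 0.001).

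Of the 9 regulator genes, 2 rose and 2 fell with Dox, 1 rose and 2 fell with Dox in the presence of the inhibitor, 4 rose with inhibitor against DMSO, and 5 rose and 2 fell with Dox plus inhibitor against Dox. Of all tested genes 17.9%, 18.2%, 38% and 32.1% were called in these comparisons, in the same order. Of 6 genes for the lipoate and thiamine cofactors of the dehydrogenase complexes, 5 were tested. With inhibitor 1 rose and 2 fell against DMSO, and the counts were the same with Dox plus inhibitor against Dox. With Dox 1 rose without inhibitor, and in the presence of the inhibitor none was called by limma, with 1 at an unadjusted p under 0.05 (LIPT1).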
